A study of Fragaria x ananassa with 6 samples.

Results

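The gene models described here had far lower signal in strawberry floral buds that overexpressed FaPRE1 than in buds with the empty vector, on each of 3 arrays. A gene model is a predicted gene that the array knows by a number. For each array the ratio was taken as the log2 of the FaPRE1-OX signal over the control signal, minus the median of all non-control spots, averaged over the spots of a gene model. A gene model counted as lowered where this ratio was -2 or less on every array, and where at least 1 of its spots stood well above background in both channels of every array. Of 34797 gene models, 19594 met the condition on signal. Of these, 246 were lowered, which is 1.26% of those measured. By the same rule turned round, 47 were raised (0.24%). Because these ratios chose the 246 gene models, all the ratios below are descriptions and carry no test.

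The FaPRE1-OX group held 3 samples of total RNA from floral buds of Fragaria x ananassa, the cultivated octoploid strawberry, transformed through Agrobacterium strain AGL0 with the construct pK7WG2-FaPRE1, and these buds were labelled elongated. The control group held 3 samples from plants carrying the empty vector, with buds labelled normal. Plants of both groups were grown in a chamber and then in a greenhouse, and RNA came from independent buds. The sources do not say how many transgenic lines the replicates represent, or the age of the buds. Arrays 1, 2 and 3 each carried the FaPRE1-OX and the control sample of the same number, on 1 slide. FaPRE1-OX was labelled with Cy3 on arrays 1 and 3 and with Cy5 on array 2.

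FaPRE1 is a small helix-loop-helix protein of the PRE family. In Arabidopsis such proteins lack the basic region that contacts DNA, pair with other helix-loop-helix proteins and so keep them from their targets, and are known as promoters of cell elongation downstream of gibberellin, brassinosteroid and auxin. Cell elongation in plants requires the wall to be loosened. Expansins, proteins that do not cut the wall, take part in this, as do enzymes that cut or rebuild pectin, xyloglucan and other wall polymers.

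The FaPRE1 probe itself followed the labels. It had a signal of 860.0, 859 and 368 in FaPRE1-OX buds 1, 2 and 3, against 19.7, 14.1 and 17.2 in control buds, where it was well above background in 1 of 3 samples. Of all non-control spots, 57.7% to 67.2% were well above background in FaPRE1-OX samples and 62.8% to 67.4% in controls, and 0 spots were saturated. Precision is limited by there being only 3 arrays. The descriptions held too few floral markers to check the tissue label, since 1 of 5 gene models described as of the tapetum, pollen or anther within the unselected run defined below was measured.

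Over the 246 lowered gene models, the median signal was 361, 376 and 417 in FaPRE1-OX buds 1, 2 and 3, against 3507, 3074 and 2380 in controls 1, 2 and 3. For every one of them, all 3 FaPRE1-OX signals lay below all 3 control signals, a separation found in 14.9% of the gene models measured. The gap between the highest FaPRE1-OX and the lowest control signal was 1.11 to 4.62 on the log2 scale, with a median of 2.19. The mean ratio over the arrays ran from -5.42 to -2.09 on the log2 scale. Its median was -2.99, which is 7.93-fold lower in FaPRE1-OX. In bulk RNA, fewer cells of a type and less RNA per cell cannot be told apart.

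The depth of the decrease differed from array to array. The lowest, median and highest ratios of the lowered gene models were -5.64, -3.24 and -2.003 on array 1. They were -5.64, -3.06 and -2.01 on array 2. On array 3 they were -6.15, -2.51 and -2.003. The decrease was thus shallower at the median on array 3, and 50 of the 246 gene models were at -3 or less on every array, 7 at -4 or less and 0 at -5 or less. The SD of a gene model's ratio over the arrays had a median of 0.40, against 0.28 over all gene models measured.

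**Figure D1:**
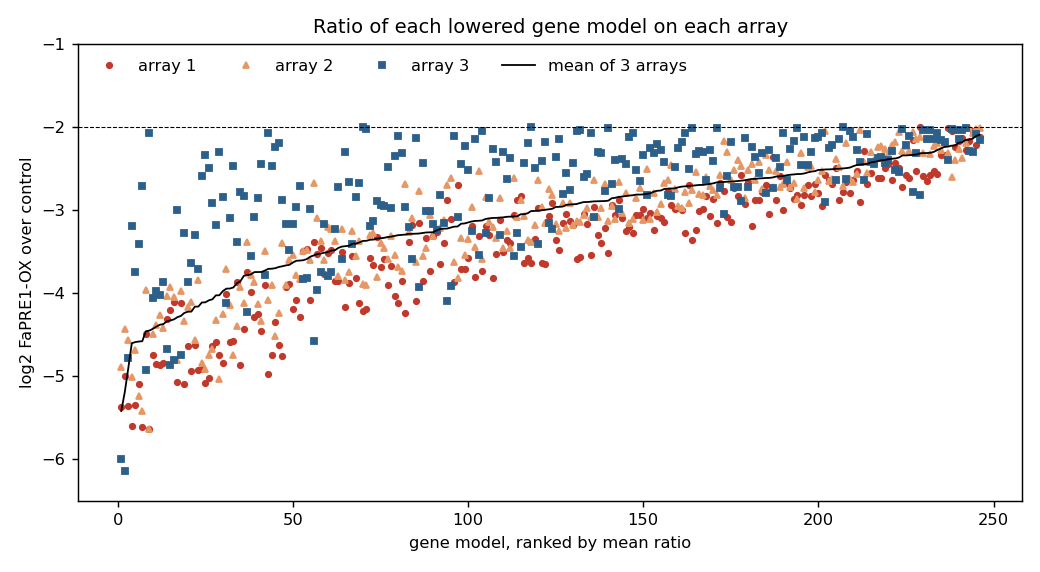
Log2 ratio of FaPRE1-OX over control (vertical axis) for each of the 246 lowered gene models on arrays 1 (circles), 2 (triangles) and 3 (squares), ranked by the mean of the 3 arrays (line) along the horizontal axis. The dashed line marks the threshold of -2; array 3 points lie above those of the other arrays for 166 gene models.

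Arrays 1 and 2, which had opposite dyes, gave close ratios. Over the lowered gene models the ratio on array 1 minus that on array 2 had a median of -0.25 and an SD of 0.30, with array 1 the lower in 210 of 246. Over all gene models measured, the median ratio was -0.03 on array 1 and 0.15 on array 2, so array 1 was the lower there too. The SD of that difference over all gene models measured was 0.26. For the lowered gene models, array 3 minus the mean of arrays 1 and 2 had a median of 0.49, an SD of 0.80 and a range of -1.54 to 3.56. The decrease was shallowest on array 3 for 166 gene models, deepest there for 52 and in between for 28. For 104 gene models array 3 lay within 0.5 of the mean of the other arrays. It was shallower by more than 1 for 59 gene models and deeper by more than 1 for 4.

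Array 3 also decided how many gene models were counted as lowered. At -2 or less were 1003 of the gene models measured on array 1 (5.12%), 859 on array 2 (4.38%) and 316 on array 3 (1.61%). Arrays 1 and 2 shared 835 (4.26%), of which 29.5% also passed on array 3. Of the other gene models lowered on arrays 1 and 2, 510 were above -2 but not above 0 on array 3 and 79 were above 0. The median array 3 ratio of all 835 was -1.46. Raised gene models behaved alike, since 156 were at 2 or more on arrays 1 and 2, and 30.1% of these also on array 3. Across the 19594 gene models, which share the slide and the array, Pearson's r was 0.96 between arrays 1 and 2, 0.63 between arrays 1 and 3 and 0.60 between arrays 2 and 3. What set array 3 apart was not tested.

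**Figure D2:**
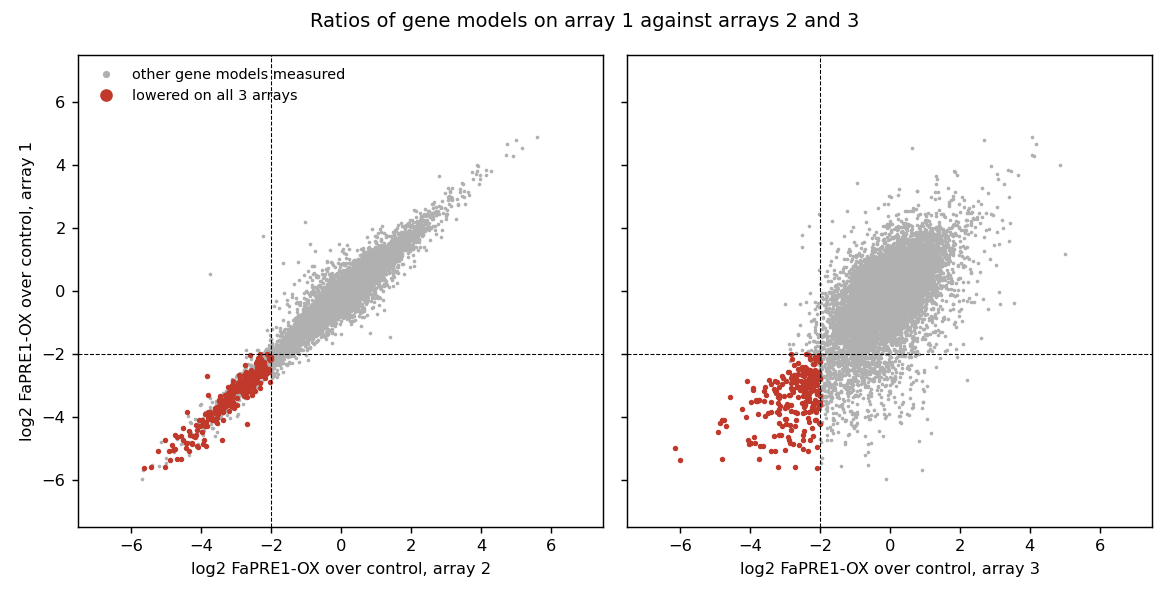
Log2 ratio of FaPRE1-OX over control on array 1 (vertical axis) against array 2 (left) and array 3 (right), 1 point per gene model measured, with the 246 lowered on all arrays in red and the threshold of -2 dashed. Points lie close to a line on the left and spread widely on the right, where many gene models lowered on array 1 are above -2 on array 3.

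At the threshold the rule separated gene models with nearly equal values. Just inside lay gene22500, with ratios of -3.64, -3.39 and -2.003 on arrays 1, 2 and 3. Also just inside was gene17903, with -2.003, -2.12 and -2.82. Just outside were gene26559, with -2.34, -1.995 and -2.22, and gene24127, with -2.41, -2.15 and -1.995.

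The condition on signal left out gene models whose FaPRE1-OX signal was lost in the background. A further 180 gene models had ratios of -2 or less on every array and a control well above background throughout, but no spot well above background for FaPRE1-OX on at least 1 array. For 117 of these, no FaPRE1-OX spot was well above background on any array. The 246 are therefore gene models that were much lower in FaPRE1-OX buds and still measured there. Their FaPRE1-OX signals reached down to 38.1, 41.1 and 41.5 on arrays 1, 2 and 3. Duplicate spots gave nearly the same ratio, with a median SD of 0.066, 0.058 and 0.064 on arrays 1, 2 and 3. Over all gene models on the array it was 0.083, 0.089 and 0.097. That set includes gene models that did not meet the condition on signal, so the sets are not matched. Of the 246, 55 had 1 spot, 189 had 2 and 2 had 4, and for 232 every spot was well above background in both channels. The other 14 had a FaPRE1-OX spot that was not on at least 1 array, and their ratios there include that spot. On array 3, gene18496 had -2.43 over both spots but -1.75 on the spot well above background alone. For gene13343 these values were -2.04 and -1.94. Both thus met the rule on array 3 only with the spot that was not well above background.

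The deepest decrease was that of gene31919, which has no description in the sources used here. Its signal was 299, 348 and 148 in FaPRE1-OX buds 1, 2 and 3, against 11376, 10541 and 8575 in control buds. By mean ratio it was followed by gene03515, also without a description, with 119, 138 and 41.5 in FaPRE1-OX buds, against 3473, 3062 and 2662 in control buds. On array 3, only 1 of the 2 FaPRE1-OX spots of gene03515 was well above background, at 76.1, while the other read 22.6. The mean ratio was -5.42 ± 0.56 for gene31919 and -5.19 ± 0.87 for gene03515 (SD, n = 3 arrays). The array 3 ratio of gene03515, the lowest of all there at -6.15, was -5.30 on the spot well above background alone. The value of -6.15 and the place of gene03515 next to gene31919 thus rest partly on a spot not well above background.

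Descriptions were found for 21 of the 246 lowered gene models, of which 18 named a protein or family, while 225 had none. Descriptions published for this array design covered 2029 gene models. Of these, 1679 formed an unselected run of the numbering from 1 to 1722. The other 350 came from tables of gene models that had changed in another experiment, so their share of lowered gene models is not independent of regulation. In the unselected run 12 of 987 measured gene models were lowered (1.22%), close to the share over the array. Of the 18, 10 lay in the unselected run and 8 were described only in those tables. The 8 are gene05424, gene19782, gene18503, gene12308, gene18505, gene10328, gene02631 and gene26607. The 18 are described below by role.

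Of the 18 named gene models, 6 are described as enzymes or structural proteins of the cell wall or of its glucans. The word list for the cell wall, counted below, holds 4 of them and neither the glycine-rich protein nor the glucan endo-1,3-beta-glucosidase. The 6 were brought together by hand, so the share given for that list is not a share for this group. Of the 6, gene19782, gene02631 and gene26607, were described only in the tables of gene models selected for change, so the size of this group partly reflects that selection. A pectate lyase-like gene model, gene01266, had signals of 388, 496 and 533 in FaPRE1-OX buds 1, 2 and 3, against 10359.7, 9733 and 7833 in control buds. Pectate lyases cleave pectin that has lost its methyl esters. All 3 FaPRE1-OX values lay far below the controls, with a mean ratio of -4.38 ± 0.43 (SD, n = 3 arrays), which is 20.8-fold lower, and gene01266 was at -4 or less on every array. A probable pectinesterase with its inhibitor domain, gene00383, belongs to the enzymes that remove those methyl esters. It had 114, 109.6 and 84.0 in FaPRE1-OX buds, against 587, 587 and 473 in control buds, and a mean ratio of -2.50 ± 0.13. With normexp background correction its mean ratio was -1.49 after loess and -1.53 after median centring, against -2.52 for processed signals with loess. These settings differ in the signal used, the offset and the dye correction as well as the background correction, and which of them moved the value was not tested.

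A pair of lowered gene models concern xyloglucan, the polymer that tethers cellulose. A probable xyloglucan endotransglucosylase/hydrolase 23, an enzyme that cuts and rejoins xyloglucan chains, is gene19782. Its signal was 2514, 2699.7 and 1804 in FaPRE1-OX buds, against 27002, 26478 and 17384 in control buds. The mean ratio was -3.40 ± 0.15, and its 2 probes had -3.73, -3.58 and -3.54, and -3.36, -2.93 and -3.28, on arrays 1, 2 and 3. A probable xyloglucan glycosyltransferase 12, gene02631, belongs to a family that in Arabidopsis makes the glucan backbone of xyloglucan. Its signal was 1815, 1717 and 1519.8 in FaPRE1-OX buds, against 9046, 8846 and 7243 in control buds. The mean ratio of gene02631 was -2.39 ± 0.06, and it varied little among the arrays.

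A glycine-rich cell wall structural protein-like gene model and a glucan endo-1,3-beta-glucosidase-like one were lowered as well. Glycine-rich proteins are deposited in walls, in vascular tissue above all, and the glucosidases hydrolyse 1,3-beta-glucans such as callose. The glycine-rich gene01122 had 10456, 13549 and 5607 in FaPRE1-OX buds, against 110623, 119089 and 79314 in control buds (mean ratio -3.53 ± 0.43). The glucosidase gene26607 had 6351, 6334 and 4665 in FaPRE1-OX buds, against 26178, 26118 and 20601 in control buds (mean ratio -2.15 ± 0.14). The second lay close to the threshold on array 2, at -2.01.

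**Figure D3:**
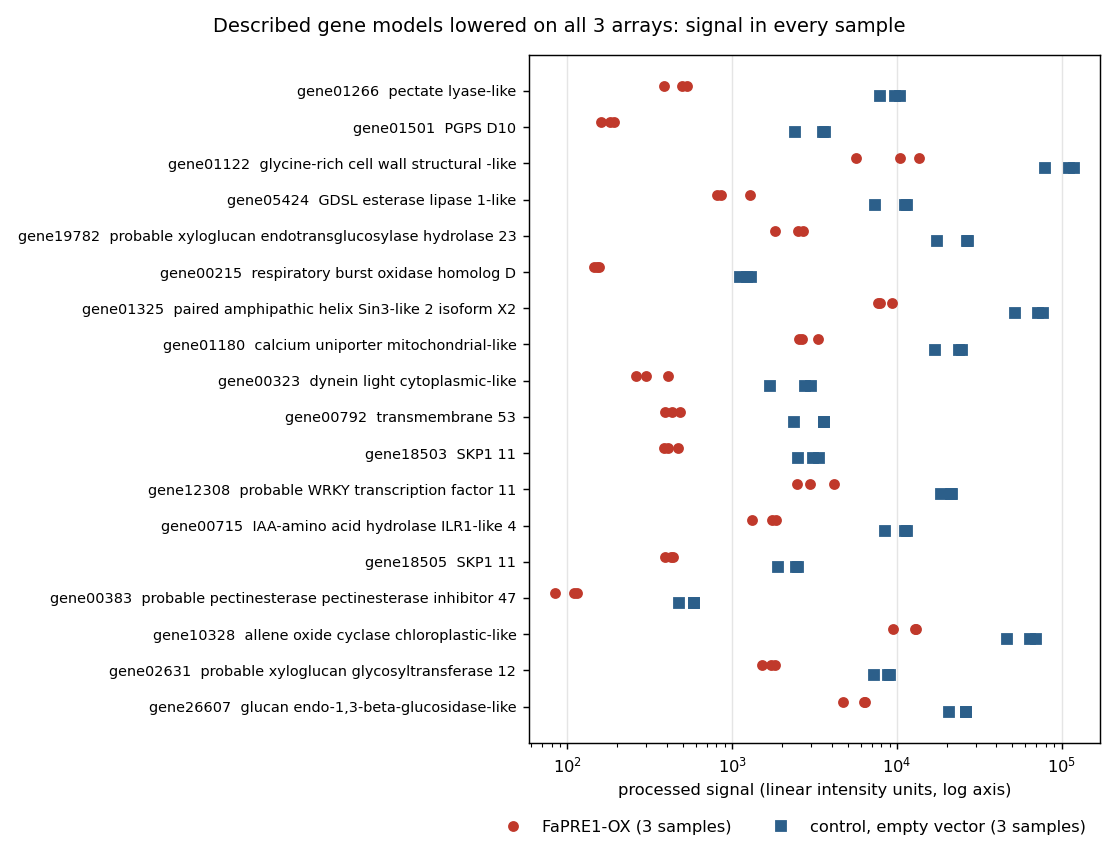
Processed signal on a log axis (horizontal) of the 18 lowered gene models with an informative description, in the 3 FaPRE1-OX samples (circles) and the 3 control samples (squares). No gene model shows overlap between the groups, but all were chosen by the ratio between these groups. Over all gene models measured, 14.9% had every FaPRE1-OX signal below every control signal. Positions of different gene models are not comparable, because each has its own probe.

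The same wall families also held gene models that were not lowered. Of 36 measured gene models described by words for cell wall polymers and their enzymes, 4 were lowered (11.1%) and 0 raised, and their median mean ratio was 0.07, against 0.00 over the array. Within the unselected run 2 of 17 were lowered (11.8%), with a median of -0.39 against 0.01 for the run. Among other xyloglucan endotransglucosylase/hydrolases, gene00216 had ratios of 2.11, 2.42 and 0.01 on arrays 1, 2 and 3. The values of gene00661 were 0.08, 0.63 and -0.14. Another gene model described as pectinesterase/inhibitor 47, gene00922, had -1.25, -0.31 and -0.40. Expansins, which loosen walls without cutting them, included gene04435 with 1.00, 1.14 and 1.15 and gene00319 with -1.20, -0.89 and -0.46. Other glucan endo-1,3-beta-glucosidases had mean ratios of -0.02 (gene00118), -0.18 (gene00481), -0.85 (gene01212) and -0.46 (gene20426). The xyloglucan endotransglucosylase/hydrolases, the pectinesterases and the glucan endo-1,3-beta-glucosidases thus held both lowered gene models and ones that were not.

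The next 5 are given by what each is known to do and were not brought together by a list. The hormone list, which goes by words and took in some unrelated descriptions, held 0 lowered gene models of 17 measured. The signalling list held 1 of 96 (1.04%), the calcium uniporter-like gene01180. An IAA-amino acid hydrolase ILR1-like 4, gene00715, belongs to enzymes that release free auxin from its amino acid conjugates. It had 1838, 1734 and 1326 in FaPRE1-OX buds, against 11507, 11119.7 and 8443 in control buds (mean ratio -2.74 ± 0.09). An allene oxide cyclase, an enzyme of jasmonate synthesis in the chloroplast, is gene10328. It had 13084, 12906 and 9442 in FaPRE1-OX buds, against 64418, 69830.2 and 46412 in control buds, and its ratio was the steadiest of the 18, at -2.42 ± 0.02.

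Respiratory burst oxidase homolog D, gene00215, is an oxidase of the plasma membrane that makes superoxide in signalling and defence. It had 154, 151 and 145 in FaPRE1-OX buds, against 1235, 1121 and 1298 in control buds (mean ratio -3.09 ± 0.23, or -2.24 with normexp and loess). A probable WRKY transcription factor 11, gene12308, which in Arabidopsis acts as a negative regulator of basal resistance, had 2469, 2976 and 4136 in FaPRE1-OX buds, against 21373, 21118 and 18573 in control buds. Its mean ratio was -2.78 ± 0.46, the decrease being shallowest on array 3. A mitochondrial calcium uniporter-like gene model, gene01180, had 2629.9, 2540.0 and 3307 in FaPRE1-OX buds, against 24662, 23702 and 16907 in control buds (mean ratio -3.01 ± 0.45).

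Both described SKP1 11 gene models were lowered, and so was the probe for FaSKP1. The 2 gene models were described only in the tables of gene models selected for change. SKP1 proteins are the adaptors that join F-box proteins to the cullin in SCF ubiquitin ligases. The first, gene18503, had 408, 383 and 465 in FaPRE1-OX buds, against 3376, 3085 and 2495 in control buds (mean ratio -2.90 ± 0.31). The second, gene18505, had 423, 390.2 and 439 in FaPRE1-OX buds, against 2420.0, 2504 and 1891 in control buds (mean ratio -2.51 ± 0.23). FaSKP1, which is a named probe and no gene model, had 109, 107.4 and 94.6 in FaPRE1-OX buds, against 1269, 1153 and 828 in control buds, a mean ratio of -3.44 ± 0.20. Near-identical copies can share a probe, and whether these probes read the same transcripts was not tested.

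The remaining named gene models fall into no common group. PGPS D10, gene01501, had 159.8, 192 and 181 in FaPRE1-OX buds, against 3652, 3534 and 2401 in control buds (mean ratio -4.22 ± 0.39, or -3.22 with normexp and loess). A GDSL esterase/lipase 1-like, gene05424, of a large family of hydrolases that act on lipids and esters, had 851, 803 and 1276 in FaPRE1-OX buds, against 11449, 11096 and 7331 in control buds (mean ratio -3.43 ± 0.67). A Sin3-like 2 gene model, gene01325, of the scaffolds that carry histone deacetylases, had 7612, 7881 and 9247 in FaPRE1-OX buds, against 71922, 76978 and 51859 in control buds (mean ratio -3.08 ± 0.40). In these last 2 the FaPRE1-OX signal was highest and the control lowest on array 3. The same held for gene01266, gene01180, gene00323, gene00792, gene18503, gene18505 and gene12308. The control was lowest on array 3 in every named gene model with an informative description except gene00215.

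A cytoplasmic dynein light chain-like gene model, gene00323, had 260.4, 301 and 409 in FaPRE1-OX buds, against 3008, 2748 and 1683 in control buds. Its mean ratio of -3.00 ± 0.75 had the widest spread of the 18. Transmembrane protein 53, gene00792, had 432, 389 and 483 in FaPRE1-OX buds, against 3608, 3605 and 2356 in control buds (mean ratio -2.93 ± 0.43). Both had a single spot on each array, as did gene18503, gene18505, gene12308, gene00715 and gene00383 above.

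Of 14 lists of descriptions, 6 held a lowered gene model and 8 held 0. Besides the cell wall, these were sugar enzymes with 2 of 34 measured (5.88%), lipid, wax and cutin with 1 of 40 (2.50%) and transcription factors with 1 of 48 (2.08%). Of the 2 sugar enzyme hits, gene02631 was also counted in the cell wall list. Neither hit lay in the unselected run, where the sugar list held 0 of 25 measured. The hits of the lipid and transcription factor lists, gene05424 and gene12308, also lay outside that run. There the lipid list held 0 of 25 measured and the transcription factor list 0 of 40. Oxidoreductases had 1 of 76 (1.32%) and signalling 1 of 96 (1.04%). The share over all 1297 described gene models measured was 1.62%. The lists without a lowered gene model were transport with 63 measured, proteases and inhibitors with 26, defence and stress with 21 and photosynthesis with 19. Phenylpropanoid and flavonoid genes gave 18, hormones 17, carpel, ovule and seed 7, and tapetum, pollen and anther 5. The lists go by words in the descriptions and overlap. The hormone words missed the IAA-amino acid hydrolase and the allene oxide cyclase described above. They also caught unrelated descriptions through parts of words, such as 2-methylene-furan-3-one reductases. The sugar words caught sucrose transporters. Most measured gene models of the tapetum, pollen and anther list were fasciclin-like arabinogalactan proteins, which the cell wall list counts as well. The photosynthesis list had the highest median mean ratio of those with over 10 measured, at 0.62. With so few members in each list, these shares describe the lists and single none of them out.

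Lowered gene models often carried consecutive numbers. The positions next in number, on either side, were counted from each lowered gene model in turn. Of 305 such positions with a measured gene model, 46 held a lowered one (15.1%), against 1.26% over the array. A pair of lowered gene models is thus counted from both ends, and the 46 positions are 23 pairs. Counted in the same way, the share was 22 of 288 positions (7.64%) at a distance of 2 numbers, and 8 of 287 (2.79%) at 3. From there to a distance of 20 it lay between 0 and 2.80%. The next neighbours that were not lowered had a median mean ratio of -0.11, and 0 of the 305 positions held a raised gene model. Of 49 measured positions next to a raised gene model, 2 held a raised one (4.08%), against 0.24% over the array. These 2 are a single pair counted from both ends. The difference between the sets was not tested.

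**Figure D4:**
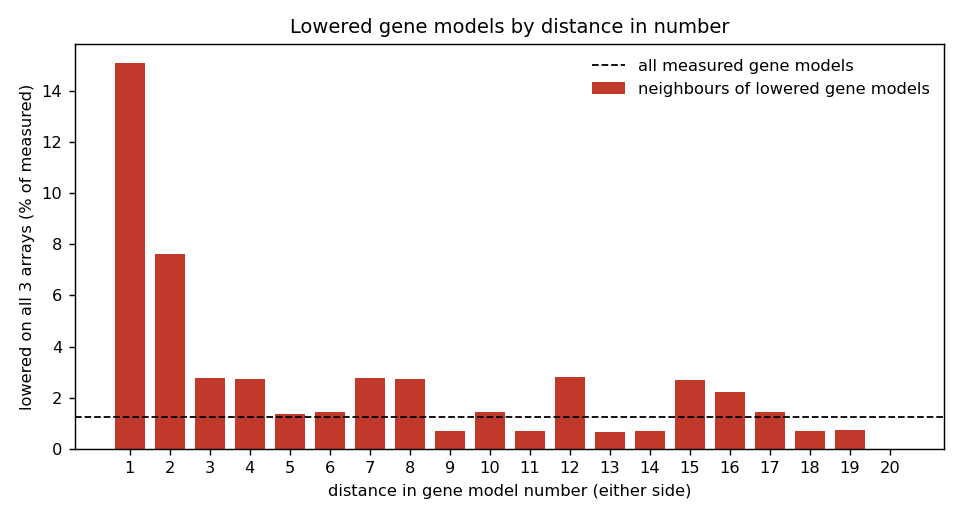
Share of measured neighbouring positions that held a gene model lowered on all arrays (vertical axis, %), by distance in number from a lowered gene model (horizontal axis). Positions were counted from each lowered gene model, so a pair of them counts from both ends. The share over all measured gene models (1.26%) is dashed. The share is 15.1% for the next number, 7.64% at a distance of 2 and at most 2.80% farther away.

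There were 17 pairs and 3 triplets of consecutive lowered gene models, 43 gene models in all (17.5%). Members of these groups also had like values. The mean ratios of 23 consecutive pairs differed by a median of 0.22, against 0.59 over all pairs of lowered gene models. Array 3 minus the mean of arrays 1 and 2 differed by 0.30 at the median in consecutive pairs, against 0.73 over all pairs. The nearest spots of consecutive gene models lay at least 16 rows or columns apart on the array, and 66 at the median. The files give no chromosomal position, and whether consecutive numbers are neighbours in the genome or share similar sequence was not tested.

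A triplet contains the xyloglucan endotransglucosylase/hydrolase gene19782. On one side gene19781 had 2179.8, 2016 and 1247 in FaPRE1-OX buds, against 22047, 21349.9 and 15099 in control buds. On the other side gene19783 had 187, 215 and 123 in FaPRE1-OX buds, against 1534, 1662 and 778 in control buds. The next measured gene model, gene19785, was not lowered, with ratios of 1.17, 1.70 and 0.20. Around the SKP1 gene models the pattern was broken. Between gene18503 and gene18505, gene18504 had ratios of -0.78, -0.73 and -1.08. On the outer sides gene18501 had -0.73, -0.18 and -0.72, and gene18507 had -0.32, 0.01 and -0.47. The lowered gene models thus stood 2 numbers apart with a far smaller difference between them.

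The fit across all genes with limma, on ratios after normexp and loess and with a dye term, called 0 of the 246 lowered gene models at an adjusted p of 0.05, and 0 of 23387 genes in all. The smallest adjusted p was 0.0592. At an unadjusted p of 0.05, 246 of the 246 were below the threshold, against 16.3% of all genes tested that were lower in FaPRE1-OX. Without the dye term the same tool called 246 of 246, with 12.8% of all genes called as lower. The members were chosen on this very contrast, so nothing is read from these counts. The fitted difference with the dye term ran from -4.58 to -1.01, with a median of -2.52 and a median SE of 0.18.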

How the data were processed

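The authors deposited scanner output of 3 arrays with 2 dyes each. The submitters' processing notes name Agilent Feature Extraction 10.7, and the headers give it as 10.7.3.1. The deposited processed signal is a linear intensity after background and dye correction by that software, and the deposited median spot and background signals are linear intensity values without it. Groups, dyes and arrays came from the labels. The token PRE3 stands in the FaPRE1-OX titles, whereas the other labels have FaPRE1. How many lines the replicates represent is not given, so p-values reflect the spread among these samples alone, and part of it may be technical.

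Ratios of processed signals were centred on each array's median over 61657 non-control spots and averaged over spots, in Python 3.11.15. Levels printed are processed signals, not centred. For the fit, limma 3.58.1 (R 4.3.3) took log2 ratios after normexp (offset 50) on the median signals and loess, for genes well above background in at least 3 of 6 samples. It used a dye term, moderated variances and two-sided p-values with Benjamini-Hochberg adjustment, and was tested on simulated data. Each array pairs 1 FaPRE1-OX sample with 1 control according to the labels, so the ratio holds the pairing.

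Descriptions were those published for gene models of this array design together with another experiment, from which no value was used. Among 34797 gene models, 0 matched a reference gene table of another assembly. No sequence was used here. Lowered gene models with an informative description were named, up to 30 by mean ratio, with the 2 deepest without one and those at the threshold. The other gene models of wall families and neighbouring numbers were chosen after their values were seen. Members and lists were chosen with earlier results of these data known. Alternatives were other background corrections, centring, filters, spot summaries and thresholds, no dye term, no replicate block, and each replicate left out. With a replicate left out, limma was run without the dye term.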

Additional observations from a re-analysis of the deposited data

How the results depend on the processing

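The number of lowered gene models was 131 with normexp and loess (129 of them among the 246), 426 with only the control required to be well above background, 429 with no condition on signal and 647 with a mean ratio of -2 or less. Leaving out 1 replicate gave 248 to 835, the highest without replicate 3. In 9 settings, those without replicate 1 or 2 among them, it stayed within 1.5 times of 246, although with median centring of normexp signals it was 174, of which 116 were among the 246. The median log2 ratio of the 246 was -2.49 with normexp and loess and -2.56 with normexp and median centring, and -3.08 to -2.82 with 1 replicate left out.

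With limma, the lowered gene models called were 246 without the dye term, 243 on processed signals, 227 on normexp signals with median centring and 0 to 246 with 1 replicate left out. All genes called were 5283, 1423 and 1003 in those 3 settings and 0 to 13951 with 1 replicate left out. Both maxima were reached without replicate 3. The fits with 1 replicate left out had no dye term, because the arrays left are too few to estimate it. Their counts therefore do not show the effect of the replicate alone. Without the replicate block, in which array and pairing are ignored, 246 lowered gene models and 4241 genes were called. With no filter on dim probes 0 were called. The causes were not tested. The design has 1 array of the second dye orientation, and signal over background limits the ratios of dim probes. With the array of the second dye orientation left out, dye and group coincide and cannot be told apart.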

Other observations

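Among features of the array that are not gene models, 6 met the same conditions on signal and ratio. Besides FaSKP1, these were CUC7 and 4 contigs without a description. CUC7 had signals of 681, 754 and 951 in FaPRE1-OX buds 1, 2 and 3, against 5254, 5098 and 3761 in control buds. The mean ratios of the 4 contigs ran from -3.49 to -2.66 on the log2 scale. All 4 were well above background in the 3 controls.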
